A study of Mus musculus with 6 samples.

Results

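The genes described here were the mouse Fc receptors of the deposited table. They were chosen by name as the receptors for IgG (Fcgr1, Fcgr2b, Fcgr3 and Fcgr4), the shared signalling chain Fcer1g, the low-affinity IgE receptor Fcer2a and the neonatal receptor Fcgrt. They made up 7 of the 21720 gene symbols, and 6 of the 7 passed the filter on low counts. RNA came from subcutaneous tumours of H22, a mouse hepatocellular carcinoma line, in female BALB/c mice of 6 to 8 weeks whose genotype the labels give as WT. The control group received 0.5% carboxymethyl cellulose sodium and the luteolin group 200 mg/kg luteolin, a plant flavonoid. Both were given daily in 0.2 ml for 21 days, starting at a tumour volume near 50 mm3. Each group had 3 libraries, and the sources used here do not say that each library was a separate mouse, so p-values measure only the spread between these libraries. The tumours were whole tissue grown from 1 cell line, so host and tumour RNA were mixed.

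Fc receptors bind the constant stem of antibodies and so connect antibody-coated cells to phagocytes, NK cells and mast cells. The activating receptors encoded by Fcgr1, Fcgr3 and Fcgr4 depend on the gamma chain encoded by Fcer1g, whose ITAM motif recruits the kinase Syk. The inhibitory receptor encoded by Fcgr2b carries an ITIM motif, which recruits the lipid phosphatase encoded by Inpp5d. The receptor encoded by Fcgrt pairs with beta-2 microglobulin and returns IgG from endosomes to the blood, while the B cell receptor encoded by Fcer2a binds IgE.

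Fcgr4, Fcgr3, Fcgr2b and Fcer1g lie on chromosome 1, Fcgr1 on chromosome 3, Fcgrt on chromosome 7 and Fcer2a on chromosome 8. The 150 bases before the start of each of the 4 IgG receptors are shown. The fold changes of these genes ran from 0.73 to 2.09 on the log2 scale, and the part of the sequences in them was not tested. The sequences come from RefSeq on GRCm38.p6, and capitals mark letters that matched a searched motif. All 7 genes matched an entry in the promoter table. For Fcgr3, with more than 1 listed start, the first is shown.
Fcgr1, minus strand, chr3:96293970-96294119: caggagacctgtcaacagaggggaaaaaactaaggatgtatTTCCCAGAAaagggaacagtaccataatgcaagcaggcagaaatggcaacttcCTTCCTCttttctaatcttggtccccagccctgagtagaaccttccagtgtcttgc
Fcgr4, plus strand, chr1:171018776-171018925: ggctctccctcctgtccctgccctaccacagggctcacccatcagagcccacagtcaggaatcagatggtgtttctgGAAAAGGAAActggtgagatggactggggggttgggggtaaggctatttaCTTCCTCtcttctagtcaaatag
Fcgr3, minus strand, chr1:171059404-171059553: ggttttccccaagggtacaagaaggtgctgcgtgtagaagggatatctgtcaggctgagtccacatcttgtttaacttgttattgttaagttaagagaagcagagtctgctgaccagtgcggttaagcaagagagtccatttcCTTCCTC
Fcgr2b, minus strand, chr1:170976072-170976221: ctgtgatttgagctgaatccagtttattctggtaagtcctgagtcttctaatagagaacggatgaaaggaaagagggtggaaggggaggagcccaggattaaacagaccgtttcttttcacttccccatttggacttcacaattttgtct

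Motifs were searched on both strands in the 250 bases before each start, in 10 promoters of the 7 genes and in all 32851 promoters of the table. The interferon-gamma activation letters TTCNNNGAA were present in 7.02% of all promoters and in that of Fcgr1, 109 to 101 bases before the start. The interferon response letters, GAAA repeated after 2 bases of any kind, were present in 2.98% of all promoters and in that of Fcgr4, 73 to 64 bases before the start. The letters GAGGAAG, a core of the site of the myeloid factor PU.1, were present in 10.6% of all promoters. In the promoters of Fcgr1, Fcgr4 and Fcgr3 they were read on the opposite strand as CTTCCTC, and they ended 50, 17 and 1 bases before the start. No matches of different motifs overlapped. The windows of Fcgr2b, Fcer1g, Fcgrt and Fcer2a held none of these letters. A match is a description of the sequence and was not tested as a binding site.

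Among the 6 genes tested, Fcgr4 was the 1 that rose at an adjusted p under 0.05 in the quasi-likelihood test of edgeR, adjusted over all genes by Benjamini-Hochberg. This test called 1.34% of all 14963 tested genes higher and 0.187% lower. At the threshold that the study's methods name, an unadjusted p under 0.05 with a change of more than 1 on the log2 scale, Fcgr1, Fcgr4 and Fcer1g were higher, against 11.3% of all genes. In 6 of 6, every luteolin library lay above every control library, which held for 15.9% of all genes. None was lower by either threshold, and 1.52% of all genes were lower at the threshold of the study's methods. The median log2 fold change was 1.10 over the 6 genes and -0.01 over all genes. In whole tumours, more cells of a type and more RNA per cell cannot be told apart.

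**Figure D1:**
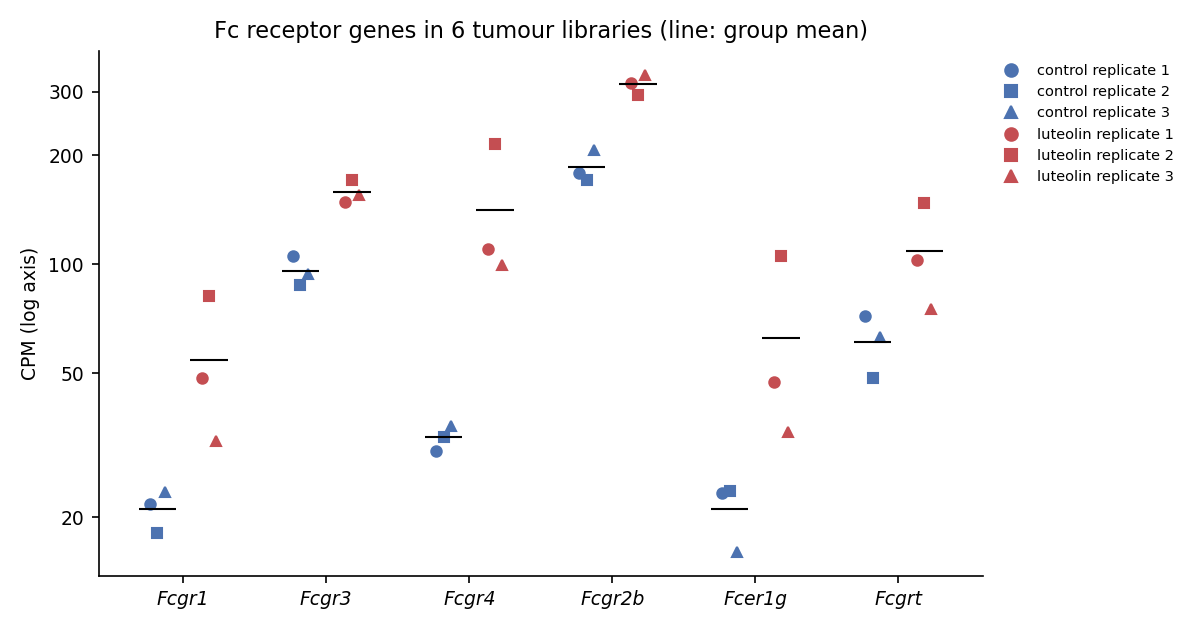
Level of each Fc receptor gene in each library, in CPM (counts scaled to the normalized library total) on a log axis, with points for the libraries and a line for each group mean. For the 6 tested genes every luteolin point lies above every control point, and luteolin replicate 2 is the highest for all of them except Fcgr2b.

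Levels are given as CPM, in which counts were divided by the library total after TMM scaling. Fcgr4, the activating receptor for IgG2 subclasses of the mouse, was at 30.5, 33.4 and 35.8 CPM in control replicates 1, 2 and 3. In luteolin replicates 1, 2 and 3 it was at 111, 215 and 99.4 CPM. The groups did not overlap, and luteolin replicate 2 stood well above the other two luteolin libraries. The group means were 33.2 ± 2.62 and 142 ± 63.8 CPM (SD, n = 3 libraries each). Its log2 fold change was 2.09 with a standard error of 0.31 and a 95% interval of 1.35 to 2.84 (edgeR, adjusted p = 0.0393). A larger fold change was estimated for 6.34% of all tested genes. Without luteolin replicate 2 it was 1.68 (edgeR, adjusted p = 0.0163). Without control replicate 1, 2 or 3 or luteolin replicate 1, the adjusted p was 0.169, 0.214, 0.159 and 0.124 in edgeR. In those 4 fits the log2 fold change was 1.99, 2.06, 2.15 and 2.24, and 0 genes of the whole table passed the adjusted threshold.

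Fcgr1, the high-affinity receptor for IgG, was at 21.8, 18.1 and 23.4 CPM in control replicates 1 to 3. The luteolin libraries were at 48.5, 81.7 and 32.6 CPM, in the same order. The lowest luteolin library was above the highest control library, and the luteolin libraries spread much more widely than the controls. The log2 fold change was 1.36 with a 95% interval of 0.56 to 2.17 (edgeR, adjusted p = 0.10). It passed the threshold of the study's methods but not the adjusted one, and without luteolin replicate 2 its log2 fold change was 0.96, inside that threshold.

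Fcgr3, the low-affinity activating receptor of NK cells and myeloid cells, was at 105, 87.7 and 93.8 CPM in control replicates 1 to 3. In luteolin replicates 1 to 3 it was at 148, 171 and 156 CPM. Here the luteolin libraries lay close together, and the means were 95.6 ± 8.94 and 159 ± 11.6 CPM (SD, n = 3 libraries each). The log2 fold change was 0.73 with a 95% interval of 0.39 to 1.07 (edgeR, adjusted p = 0.0635). It was 0.69 without luteolin replicate 2.

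Fcer1g, the gamma chain gene that these receptors share, was at 23.3, 23.7 and 16.0 CPM in control replicates 1 to 3. In luteolin replicates 1 to 3 it was at 47.4, 106 and 34.3 CPM. Luteolin replicate 2 was again the highest by a wide margin. The log2 fold change was 1.57 with a 95% interval of 0.55 to 2.59 (edgeR, adjusted p = 0.118). Without luteolin replicate 2 it was 0.97, inside the threshold of the study's methods, so that Fcgr4 was then the only 1 of the 6 genes past that threshold.

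Fcgr2b, the inhibitory receptor of B cells and myeloid cells, was at 179, 171 and 208 CPM in control replicates 1 to 3. The 3 luteolin libraries had 318, 293 and 335 CPM. The groups did not overlap, and luteolin replicate 2, the highest library for the other tested genes, was the lowest luteolin library for this one. The means were 186 ± 19.3 and 315 ± 20.8 CPM (SD, n = 3 libraries each). The log2 fold change was 0.76 with a 95% interval of 0.42 to 1.10 (edgeR, adjusted p = 0.0570). Without luteolin replicate 2 it was 0.83 and passed the adjusted threshold (edgeR, adjusted p = 0.0454).

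Fcgrt, the neonatal receptor gene, was at 72.1, 48.4 and 62.8 CPM in control replicates 1 to 3. After luteolin the replicates were at 103, 148 and 75.2 CPM. Luteolin replicate 3 was only slightly above control replicate 1, and luteolin replicate 2 was again highest. The log2 fold change was 0.83 with a 95% interval of 0.17 to 1.49 (edgeR, adjusted p = 0.170). Leaving out luteolin replicate 2 gave 0.56. Its unadjusted p no longer fell under 0.05 when control replicate 2 or control replicate 3 was left out.

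Fcer2a, the low-affinity IgE receptor known as CD23 on B cells, had 35, 0 and 3 counts in control replicates 1 to 3. In luteolin replicates 1 to 3 it had 0, 18 and 8 counts. These counts overlapped and were too low for the filter, so the gene was not tested and its difference was not detectable at this depth. A count of 0 allows a level of up to 3 counts, which is 0.0359 to 0.0490 CPM in these libraries, for counting error only. This holds if 1 unit of the values is 1 read pair, and the bound is higher if 1 pair gives more units.

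**Figure D2:**
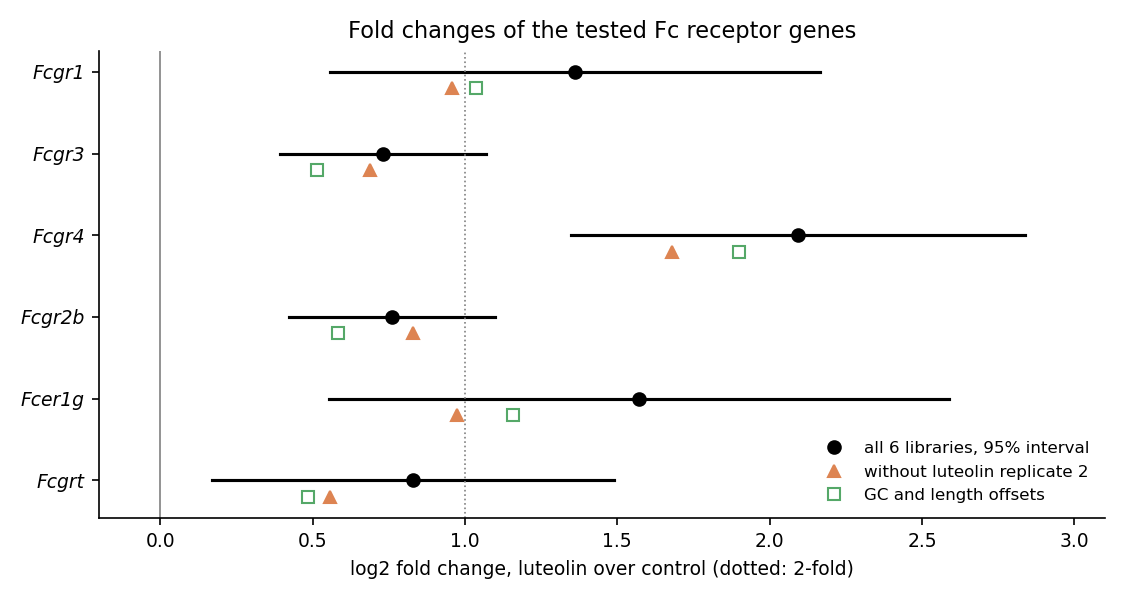
Log2 fold change, luteolin against control, of the 6 tested genes in edgeR, with bars for the 95% interval, triangles for the fit without luteolin replicate 2 and squares for the fit with GC and length offsets. Fcgr4 has the highest estimate at 2.09, and Fcgr1 and Fcer1g drop below 1 without that library.

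Luteolin replicate 2 stood apart from the other libraries in its content of skin genes. Summed over 12 keratinocyte markers, it reached 9441 CPM, against 403 and 22.0 CPM in luteolin replicates 1 and 3 and 14.5 to 19.0 CPM in the control libraries. Its total was also the highest, 80442954 counts against 61081637 to 69391357 in the other 5 libraries. Between 15579 and 16767 genes were detected per library. Adipocyte markers summed to 413 CPM in luteolin replicate 2 and to 32.4 to 105 CPM in the other libraries. Endothelial markers summed to 325 CPM there and to 112 to 199 CPM in the other libraries. The part of the RNA of these tissues in the values of that library was not tested. The values without that library are given beside each gene above. Without it, 9 of 10 tested keratinocyte markers were still higher and 1 was lower at the threshold of the study's methods, which 7.52% of all genes passed upward. The rank correlation, across genes, of each library's deviation from the mean of all libraries with gene GC content ran from -0.54 to 0.45 across the libraries, with both signs in each group. With offsets for GC content and length, the calls at an adjusted p under 0.05 were 604 higher and 382 lower, against 200 higher and 28 lower without them, and the median of all genes moved to -0.23. Relative to that median, the log2 fold changes were 2.13 for Fcgr4, 1.39 for Fcer1g, 1.27 for Fcgr1, 0.81 for Fcgr2b, 0.74 for Fcgr3 and 0.71 for Fcgrt, all still positive.

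The balance between activating and inhibitory receptors was compared within each library, as the ratio of each activating gene to Fcgr2b. The ratio of Fcgr4 to Fcgr2b was 0.170, 0.196 and 0.172 in control replicates 1 to 3 and 0.348, 0.734 and 0.297 in luteolin replicates 1 to 3. The groups did not overlap, and the geometric mean of the ratio was 2.36-fold higher in the luteolin group, a difference of 1.24 on the log2 scale. An exact two-sided permutation test gave p = 0.1, the smallest it can give for 3 libraries against 3, and 0.4 after adjustment over the 4 ratios. Without luteolin replicate 2 the log2 difference was 0.84. The ratio of Fcgr3 to Fcgr2b was nearly the same in both groups, with a log2 difference of -0.03 (exact permutation p = 0.9). The differences for Fcgr1 and Fcer1g were 0.50 and 0.66, with overlapping groups (exact permutation p = 0.4 for each), and 0.10 and 0.14 without luteolin replicate 2.

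**Figure D3:**
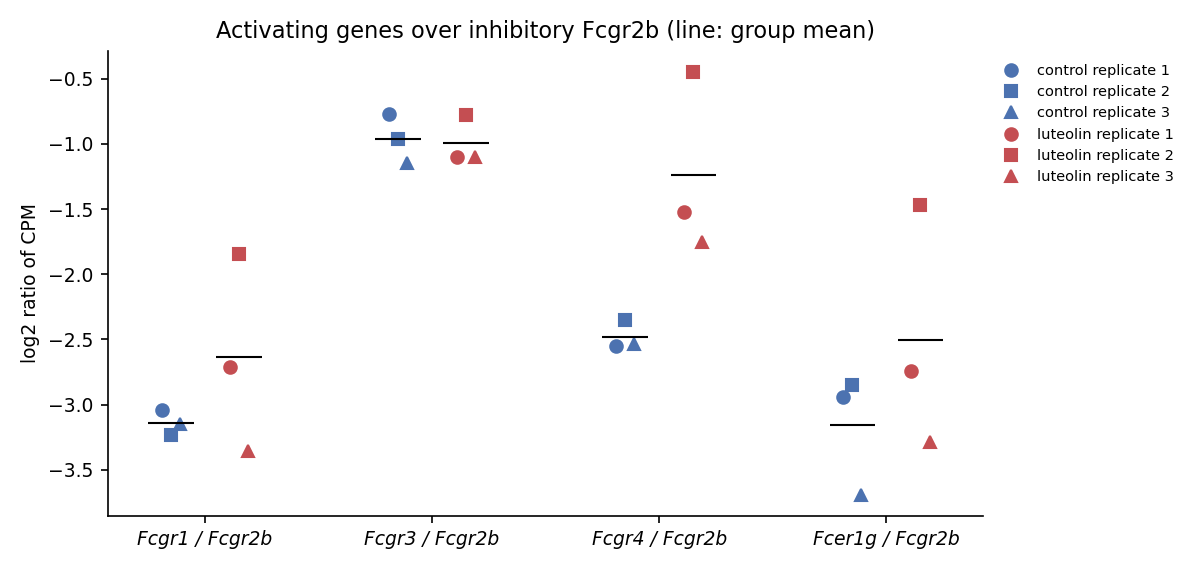
Log2 ratio of each activating gene to Fcgr2b in each library, with a line for each group mean. The ratio of Fcgr4 is higher in all 3 luteolin libraries than in any control library, while the other ratios overlap.

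Levels of different genes were compared per kilobase of mean transcript length. In the control group Fcgr2b was highest at 116 CPM per kilobase, followed by Fcgr3 at 84.7 and Fcgrt at 59.1. Fcer1g at 36.7 and Fcgr4 at 26.5 had overlapping ranges, and Fcgr1 at 13.2 and Fcer2a at 0.16 were lowest. In the luteolin group the means were 197 for Fcgr2b, 140 for Fcgr3, 113 for Fcgr4, 109 for Fcer1g and 105 for Fcgrt, with Fcgr1 at 34.0 below them. The ranges of Fcgr4, Fcer1g and Fcgrt overlapped each other and that of Fcgr3, and in luteolin replicate 2 Fcer1g at 184.5 was level with Fcgr2b at 183.6. As shares of the 4 IgG receptors per kilobase, Fcgr4 made up 11.0 ± 0.983% of the control level and 22.7 ± 7.02% of the luteolin level (SD, n = 3 libraries each). Fcgr2b made up 48.3 ± 2.30% and 41.4 ± 7.42%, and Fcgr3 made up 35.2 ± 2.94% and 29.1 ± 1.86%. Fcgr1 made up 5.48 ± 0.326% and 6.84 ± 2.31%. With the longest transcript as the length, Fcgr3 had the highest mean instead in both groups, at 44.9% in the controls, and Fcgr4 was at 16.8% and 32.1%. In the luteolin libraries the ranges then overlapped, at 30.8% to 38.3% for Fcgr3 and 26.2% to 41.5% for Fcgr4. Fcgr3 led in luteolin replicates 1 and 3, and Fcgr4 led in luteolin replicate 2.

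**Figure D4:**
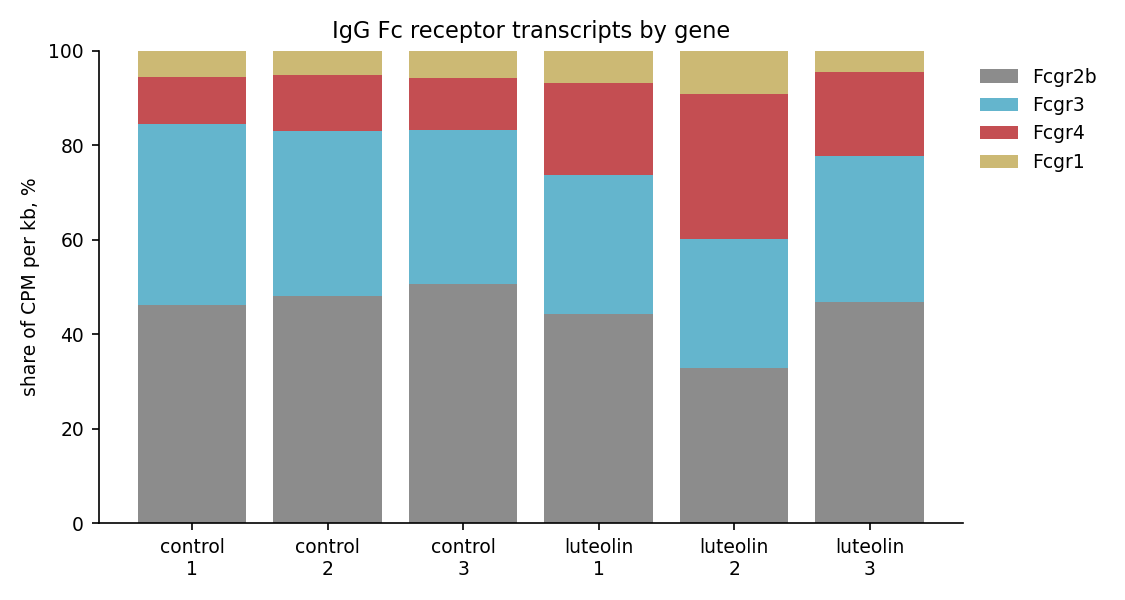
Share of each IgG receptor gene in the summed level of the 4 genes per kilobase of mean transcript length, in percent, for each library as a stacked bar starting at 0. The share of Fcgr4 lies between 9.98% and 11.9% in the control libraries and between 17.7% and 30.7% in the luteolin libraries.

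These genes have related sequences, so the reads of 1 can be counted for another. Fcgr3 and Fcgr2b shared 94 words of 75 bases, which were 5.42% of the words of Fcgr3 and 1.63% of those of Fcgr2b. With all other genes together, Fcgr2b shared 313 of its 5768 words, or 5.43%. Fcgr1, Fcgr4, Fcer1g and Fcgrt shared no such word with any other gene. How the counting treated shared reads is not given in the sources used here, so the counts of Fcgr3 and Fcgr2b are uncertain to that extent.

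Fc receptors are expressed mainly by myeloid cells, so each gene was also set against the geometric mean of 14 macrophage and monocyte markers in the same library. The level of Fcgr4 relative to the markers was 0.494, 0.528 and 0.475 in control replicates 1 to 3 and 0.919, 1.44 and 0.808 in luteolin replicates 1 to 3. The groups did not overlap, with a log2 difference of 1.04 (exact permutation p = 0.1, 0.4 after adjustment over 6 genes). Without luteolin replicate 2 that difference was 0.79. The other 5 genes overlapped between the groups, at log2 differences of 0.45 for Fcer1g, 0.30 for Fcgr1, -0.18 for Fcgrt, -0.20 for Fcgr2b and -0.24 for Fcgr3. Leaving out luteolin replicate 2 gave 0.09, 0.05, -0.33, -0.06 and -0.20. In all 6 libraries, the last 3 were 0.20, 0.18 and 0.14 when the summed CPM of the markers was used instead, so their direction depended on how the markers were combined.

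The macrophage and monocyte markers summed to 2030 to 2400 CPM in the control libraries and 2727 to 3966 CPM in the luteolin libraries. Of the 14, 5 were higher at the threshold of the study's methods, against 11.3% of all genes, and none was at 0. Lysozyme gene Lyz2 had a log2 fold change of 0.23 (edgeR, adjusted p = 0.590), and the complement genes C1qa and C1qc had 0.80 and 0.91 (edgeR, adjusted p = 0.185 and 0.179). Markers of other cells that carry Fc receptors were summed in the same way. Neutrophil markers went from 47.0 to 52.9 CPM in the controls to 131 to 298 CPM, and 5 of 9 tested were higher at the threshold of the study's methods. S100a9, a calcium-binding alarmin, had a log2 fold change of 4.70 (edgeR, adjusted p = 0.0331), while Ly6g, Retnlg and Mpo had -0.57, 0.43 and 1.29 with overlapping groups. Mast cell and basophil markers went from 20.6 to 28.0 CPM to 62.2 to 170 CPM, with 7 of 9 higher, and Hdc, the histamine-forming enzyme, had a log2 fold change of 3.96 (edgeR, adjusted p = 0.0331). Of 6 tested NK cell markers, 5 were higher at the threshold of the study's methods, with a median log2 fold change of 2.17. Their sum, 74.0 to 100 CPM in the controls and 73.5 to 79.8 CPM after luteolin, was mostly Eomes. Eomes, at 82.0 CPM in the control mean, had a log2 fold change of -0.86 and the killing gene Prf1 one of 2.59 (edgeR, adjusted p = 0.0842 and 0.0521). B cell markers summed to 15.01 to 16.4 CPM and 17.3 to 53.8 CPM, with Cd79b at a log2 fold change of 2.17 (edgeR, adjusted p = 0.139), and 2 of 9 tested were higher at the threshold of the study's methods. Dendritic cell markers summed to 124 to 136 CPM and 194 to 290 CPM, with 7 of 9 higher. The part of these cells in the Fc receptor levels was not tested.

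The remaining marker lists gave the following counts at the threshold of the study's methods, which 11.3% of all genes passed upward and 1.52% downward. Of the tested markers, 8 of 8 were higher for T cells, 4 of 5 for plasma cells, 6 of 9 for fibroblasts, 3 of 9 for endothelial cells, 1 of 5 for platelets, 1 of 6 for adipocytes and 9 of 10 for keratinocytes. For erythroid cells 0 of 5 were higher and 1 was lower, and for skeletal muscle 0 of 8 passed in either direction. The hepatoma label was checked by 12 hepatocyte markers, which summed to 369 to 433 CPM in the control libraries and 210 to 364 CPM in the luteolin libraries. Most of that sum was Trf, the iron carrier transferrin, at 321 ± 26.3 and 177 ± 92.2 CPM (SD, n = 3 libraries each). Afp, an albumin relative made by fetal liver and liver tumours, was at 56.5 ± 11.9 and 37.7 ± 4.67 CPM (SD, n = 3 libraries each), and the liver factor Hnf4a was below the filter. The other 8 tested markers had positive log2 fold changes, and the median over the 10 tested was 1.61. Gpc3, a surface proteoglycan of liver tumours, was the 1 higher at the threshold of the study's methods, at 2.73 (edgeR, adjusted p = 0.0665). Klra8, an NK cell marker, was at 0 in every library.

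The pathway genes around the receptors were counted by role. Of 26 activating signalling genes, all tested, 10 were higher at the threshold of the study's methods and 4 at an adjusted p under 0.05, with a median log2 fold change of 0.73. Over all genes these shares were 11.3% and 1.34%. The 4 were Syk, the kinase that docks on the gamma chain, Lcp2, an adaptor, Vav1, an exchange factor for Rac, and Fyn, a Src family kinase. Syk was at 41.6, 32.8 and 36.5 CPM in control replicates 1 to 3 and at 95.4, 149 and 86.0 CPM in luteolin replicates 1 to 3. Their log2 fold changes were 1.57 for Syk, 1.43 for Lcp2, 1.57 for Vav1 and 1.51 for Fyn (edgeR, adjusted p = 0.0403, 0.0338, 0.0437 and 0.0403).

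Of 12 inhibitory signalling genes, 3 were higher at the threshold of the study's methods and 1 at an adjusted p under 0.05, against 11.3% and 1.34% of all genes, and the median log2 fold change was 0.24. Inpp5d, the phosphatase that acts downstream of the inhibitory receptor, had a log2 fold change of 1.19 (edgeR, adjusted p = 0.0437). It was at 21.7, 18.9 and 21.8 CPM in control replicates 1 to 3 and at 42.9, 58.1 and 41.5 CPM in luteolin replicates 1 to 3. Of 20 engulfment genes, 19 were tested and 7 were higher at the threshold of the study's methods, with a median log2 fold change of 0.64. Wipf1, which binds the actin regulator WASP, had a log2 fold change of 1.13 (edgeR, adjusted p = 0.0476), and Amph was at 0 in every library.

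Of 10 genes for other receptors and adaptors that use the gamma chain or resemble it, 9 were tested and 7 were higher at the threshold of the study's methods, which 11.3% of all genes passed. Clec4d and Clec4e, lectins that sense microbial glycolipids, and Pira2, an activating immunoglobulin-like receptor, rose by 3.30, 3.47 and 1.93 on the log2 scale (edgeR, adjusted p = 0.0331, 0.0366 and 0.0437). Clec4e was at 0.830, 1.498 and 1.36 CPM in control replicates 1 to 3 and at 21.9, 7.66 and 11.4 CPM in luteolin replicates 1 to 3, with luteolin replicate 1 the highest. Gp6, the platelet collagen receptor, was at 0 in every library. Leaving out luteolin replicate 2 took the count of these genes from 7 to 5 and that of the engulfment genes from 7 to 1. The share of all genes higher at the same threshold went from 11.3% to 7.52%.

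Of 12 Fc receptor relatives, 9 were tested, 4 were higher at the threshold of the study's methods, against 11.3% of all genes, and 0 at an adjusted p under 0.05 in edgeR. Those 4 were also the ones with an unadjusted p under 0.05. At an adjusted p under 0.05, DESeq2 called 3 of 11 tested relatives higher and voom 3 of 9. Over all genes these tools called 8.83% and 12.6% higher, against 1.34% in edgeR. Fcer1a, the binding chain of the high-affinity IgE receptor, was at 0.129, 0.185 and 0.248 CPM in control replicates 1 to 3 and at 1.11, 1.04 and 1.00 CPM in luteolin replicates 1 to 3. It had a log2 fold change of 2.48, and Fcrlb, an Fc receptor-like gene, one of 1.27 (edgeR, adjusted p = 0.0831 and 0.0683). Of 6 genes for partners of the neonatal receptor, 1 was higher at the threshold of the study's methods, against 11.3% of all genes. B2m, its light chain, had a log2 fold change of 1.31 and Calr, a chaperone, one of 0.30 (edgeR, adjusted p = 0.0929 and 0.289). Of the 13 antibody genes listed, the symbol of only 1 was found in the deposited table, Jchain, which joins polymeric antibodies. Its log2 fold change was 2.01 (edgeR, adjusted p = 0.151). The listed heavy and light chain genes were not found there, so their levels were not read. No gene of these 7 lists was lower at either threshold with all 6 libraries in edgeR. Fcrls, an Fc receptor-like gene named after its values were seen, had a log2 fold change of -1.26 with overlapping groups (edgeR, adjusted p = 0.362). With luteolin replicate 2 left out, 1 of the relatives was lower at both thresholds.

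**Figure D5:**
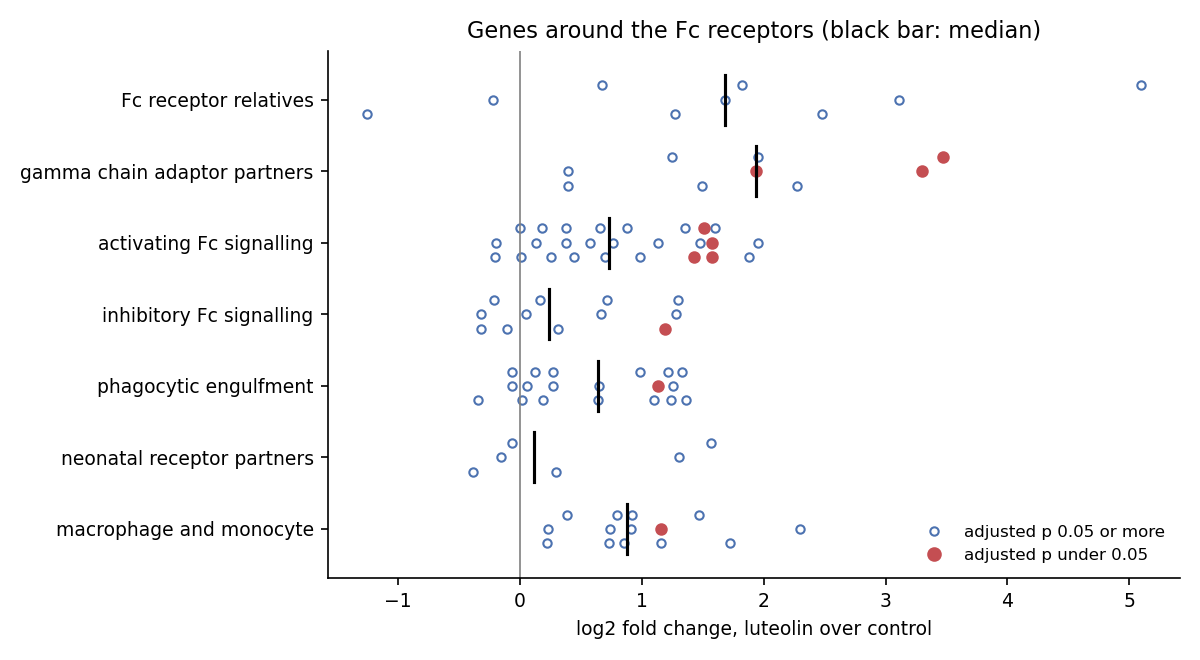
Log2 fold change, luteolin against control, of each tested gene in 6 pathway lists around the Fc receptors and in the macrophage and monocyte markers, with a black bar at each list's median and filled red points for genes with an adjusted p under 0.05. The medians run from 0.12 for the partners of the neonatal receptor to 1.93 for the genes that use the gamma chain or resemble it.

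The tested gene most like each receptor was found by Pearson's r of log2 CPM over the 6 libraries, which share the group difference and the library-wide features described above. For Fcgr4 these were Vav1 (r = 0.999), Nlrc5 and Anxa6, for Fcgr1 they were Fxyd6 (r = 0.997), Il18bp and Hrh2, and for Fcer1g they were Maf (r = 0.999), Igfbp7 and Mark1. For Fcgr3 they were Plin2 (r = 0.997), Ptprj and Crocc2, for Fcgr2b they were Ccn4 (r = 0.993), Abca1 and Igsf6, and for Fcgrt they were B430306N03Rik (r = 0.996), Cul9 and Bdh1. Over 0.9 lay 1166 genes for Fcgr4 and 454 for Fcgr2b, the highest and lowest of the 6 counts, so a high r was common. Within groups, centred on the group means, Fcgr4 and Fcgr1 had an r of 0.91, while Fcgr2b had -0.42 with Fcgr4 and -0.80 with Fcer1g. Each of these r values rests on 6 libraries, and the within-group values on less, since the group means were removed. Luteolin replicate 2 was the highest luteolin library for Fcgr4, Fcgr1 and Fcer1g and the lowest for Fcgr2b. The correlation of the libraries with gene GC content differed in sign. The GC content was 47.4% for Fcgr2b, 48.2% for Fcgr4 and 53.3% for Fcer1g. Its part in these r values was not tested.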

How the data were processed

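RNA-seq libraries of H22 tumours, 3 control and 3 luteolin, were analysed. The deposited table holds whole numbers for each gene symbol, analysed as estimated counts, since 70.3% of the values from 1 to 40 are multiples of 4 or 1 above one, against 50% for an even spread. Per the submitters' processing notes, bcl2fastq 2.0, HISAT2, StringTie and DESeq2 were used, and both mm39 and rn6 are named. No columns were left out. Totals were 61081637 to 80442954 counts.

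The members and lists were chosen with earlier results of these data known. Counts were fitted in R 4.3.3 with edgeR 4.0.16 (TMM, filterByExpr, quasi-likelihood test, no covariates) over 14963 genes, two-sided, with Benjamini-Hochberg adjustment. CPM uses TMM-normalized totals, and log2 CPM a prior count of 2. Ratios were tested by exact permutation of the libraries. Pathway genes were named at an adjusted p under 0.05 (at most 4), or else as the 2 with the smallest p, and markers from the 3 highest. Some genes that this rule selects are not reported here. S100a9, Hdc, Cd79b, Prf1 and Eomes were taken from those 3 with their values known, and Ly6g, Retnlg, Mpo, Gpc3 and Fcrls from outside the rule after their values were seen. Gene lengths came from GENCODE M21 and promoters from RefSeq, both on GRCm38, used for names and sequence only. The pipeline was tested on simulated data.

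Alternatives were DESeq2 1.42.0, voom of limma 3.58.1 with quality weights, RLE and upper-quartile normalization, no filter, a minimum of 10 counts throughout, a block for the replicate number, each library left out, a division of all values by 4, GC and length offsets, a prior count of 0.5, the summed CPM of the macrophage markers, and the longest transcript.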

Additional observations from a re-analysis of the deposited data

How the results depend on the processing

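All 6 tested genes kept a positive log2 fold change in each of the 15 alternative fits. The count of them higher at an adjusted p under 0.05, 1 in edgeR, was 5 with DESeq2, 6 with voom, 2 with upper-quartile normalization, 3 with at least 10 counts in every library, 2 with values divided by 4 and 3 with GC and length offsets. Over all tested genes the count, 200 of 14963 in edgeR, was 1543 of 17478 with DESeq2 and 1886 of 14963 with voom. It was 224 of 14963 with upper-quartile normalization and 345 of 13571 with at least 10 counts in every library. Values divided by 4 gave 327 of 13580, and GC and length offsets gave 604 of 14635. With the replicate number as a block the counts were 0 of the 6 genes and 34 of all genes. In that fit 6 of the 6 genes and 2297 of all 14963 genes had an unadjusted edgeR p under 0.05. Same-numbered libraries had deviations correlated at -0.20, -0.09 and 0.06, so the numbers were not read as pairs. With 1 library left out, the counts ran from 0 to 2 of the 6 genes and from 0 to 276 of all genes. They were 0 without any 1 control library or luteolin replicate 1, where 5 or 6 of the 6 genes and 1907 to 2462 of all genes had an unadjusted edgeR p under 0.05.

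At the threshold of the study's methods, the count ran from 1 to 3 of the 6 genes. With 1 library left out, the count of pathway genes ran from 21 to 35. Both low values came without luteolin replicate 2, where 7.52% of all genes passed upward, against 11.3% with all 6 libraries. The 35 came without luteolin replicate 1, where 11.2% of all genes passed upward. Upper-quartile normalization gave 36 pathway genes, against 33 in edgeR with TMM, and 11.8% of all genes, against 11.3%. Among the Fc receptor relatives, 1 gene was lower at both thresholds with voom and without luteolin replicate 2, and at the threshold of the study's methods alone with DESeq2 and with GC and length offsets. The adjusted p of Fcgr4 ran from 2.97e-08 to 0.214 over its alternatives. Relative to the macrophage markers, the direction reversed with summed marker CPM for Fcgr2b (0.18), Fcgr3 (0.14) and Fcgrt (0.20). With 1 library left out, Fcgrt ran from -0.33 to 0.0202, and the ratio of Fcgr3 to Fcgr2b ran from -0.14 to 0.0614. The cause was not tested. With 3 libraries against 3, the exact tests cannot go below 0.1, and 1 unit of the values need not be 1 read pair.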
